A study of Mus musculus with 4 samples.

Results

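Peaks of the transcription factor MIZ-1 were examined at 9 genes of the B cell receptor (BCR) complex and its proximal signaling machinery, Cd79a, Cd79b, Cr2, Lyn, Syk, Btk, Blnk, Plcg2 and Ptpn6. The genes were listed by name, and they are 9 of the 21951 protein-coding genes and 55450 genes in all of the GENCODE basic annotation of the mouse genome. Every peak was collected that touched a promoter, defined as 2000 bp before to 1000 bp after any annotated transcript start, or the gene body, the span of the annotated transcripts. MIZ-1WT cells carried the wild-type protein and MIZ-1DPOZ cells came from a MB1-cre X Miz-1floxedPOZ cross, in which Cre removes the POZ domain of MIZ-1 in B lineage cells. Both genotypes were represented by B220+ splenocytes, crosslinked in 1% formaldehyde and precipitated with the Miz-1 H-190 antibody. There were 4 libraries, 1 ChIP and 1 input library for each of 2 genotypes, and no agent or stimulation is named in the labels. The labels do not say how many mice were used, their age, or whether the MIZ-1WT mice carried Cre. The MB1-cre allele is an insertion of Cre in the Cd79a (mb-1) gene, driven by that gene's promoter, so the Cd79a locus itself was modified in the MIZ-1DPOZ cells.

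The membrane immunoglobulin of the BCR has no signaling activity of its own, and it works through the paired chains Igα and Igβ encoded by Cd79a and Cd79b. After antigen binding, the Src family kinase LYN phosphorylates the tail motifs of these chains and SYK docks there. SYK then phosphorylates the adaptor BLNK, which brings BTK and PLCG2 together so that calcium is released, while the phosphatase SHP-1, encoded by Ptpn6, limits the response. The complement receptor CR2 (CD21) lowers the amount of antigen needed. MIZ-1 binds DNA through zinc fingers, and its POZ domain is used for oligomerization and contacts with partner proteins.

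A peak list shows where the signal of a library passed a cutoff, so a gene without a peak is not a gene without binding. There were 34209 deposited MIZ-1WT peaks and 78357 MIZ-1DPOZ peaks, and the MIZ-1DPOZ ChIP library was estimated to be 1.34 times as deep. With 1 ChIP library per genotype there was no replicate error and no test between genotypes, and every difference below describes a pair of libraries. The pileup is the number of fragments that cover the summit. Fold enrichment is the pileup plus 1 divided by the local background plus 1, a linear ratio scaled within each list. Peak lists measure no expression, so the B cell identity of the sample could not be checked on marker genes.

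In MIZ-1WT cells, 3 of the 9 genes had a promoter peak (Lyn, Syk and Plcg2), and 30.9% of all protein-coding genes had one. In MIZ-1DPOZ cells 3 of 9 had one (Cd79a, Syk and Plcg2), and 48.7% of all protein-coding genes had one. Syk and Plcg2 had one in both lists, a state shared by 26.6% of protein-coding genes. Cd79b, Cr2, Btk, Blnk and Ptpn6, 5 of the 9 genes, had no promoter peak in either list, as did 47.1% of protein-coding genes. For MIZ-1WT, 3 of 9 is a share near the background of 30.9%. For MIZ-1DPOZ the same count stands beside a higher background, and with 9 genes such a gap amounts to 1 or 2 genes. Counting peaks anywhere in the gene span, 3 genes had a MIZ-1WT peak beside 40.9% of protein-coding genes, and 6 had a MIZ-1DPOZ peak beside 61.9%. Cd79b, Btk and Ptpn6 had no peak at all.

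The MIZ-1WT promoter summits of Lyn, Syk and Plcg2 lay in CpG-rich sequence. Sequences from these 3 promoters are shown here because of this feature. The windows reach 50 bp to each side of the summit on the + strand of GRCm38 (mm10), and capitals mark CpG dinucleotides. The Lyn window is chr4:3678411-3678511 in intron 1. The Plcg2 windows are chr8:117498496-117498596 for the MIZ-1WT summit and chr8:117498573-117498673 for the MIZ-1DPOZ summit, both in intron 1. For Syk the stretch of the MIZ-1DPOZ peak that lies before every annotated start is given, chr13:52582976-52583172.
Lyn, MIZ-1WT summit: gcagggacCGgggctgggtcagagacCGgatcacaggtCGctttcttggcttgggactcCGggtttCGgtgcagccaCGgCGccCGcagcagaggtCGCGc
Plcg2, MIZ-1WT summit: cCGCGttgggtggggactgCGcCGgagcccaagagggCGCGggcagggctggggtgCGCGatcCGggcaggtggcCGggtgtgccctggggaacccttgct
Plcg2, MIZ-1DPOZ summit: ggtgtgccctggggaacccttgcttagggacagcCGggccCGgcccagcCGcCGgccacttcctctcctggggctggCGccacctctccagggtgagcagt
Syk, MIZ-1DPOZ peak before the start: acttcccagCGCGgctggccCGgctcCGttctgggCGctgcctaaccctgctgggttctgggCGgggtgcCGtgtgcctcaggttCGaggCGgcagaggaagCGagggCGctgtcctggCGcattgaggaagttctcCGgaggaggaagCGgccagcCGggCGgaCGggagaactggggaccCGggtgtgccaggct
The Lyn window and the MIZ-1WT window of Plcg2 held 10 CpG each, the MIZ-1DPOZ window of Plcg2 held 5, and the 197 bp of Syk held 18.

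The promoters without a MIZ-1WT peak were poorer in CpG, and 3 of them are shown for contrast. The Cd79a peak of the MIZ-1DPOZ list lies upstream of the gene at chr7:24896468-24896640 on the + strand. RefSeq promoter sequences (GRCm38.p6) were found for 7 of the 9 genes. Of these, the parts before every GENCODE start are given, 5′ to 3′ along the gene, for Cd79a (chr7:24897247-24897380, + strand), Btk (chrX:134583141-134583390, - strand) and Cr2 (chr1:195176717-195176969, - strand). Capitals again mark CpG.
Cd79a, MIZ-1DPOZ peak: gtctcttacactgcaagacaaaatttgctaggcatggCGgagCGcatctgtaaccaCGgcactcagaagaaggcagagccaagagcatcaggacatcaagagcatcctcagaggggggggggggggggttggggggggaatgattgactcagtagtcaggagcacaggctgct
Cd79a, promoter: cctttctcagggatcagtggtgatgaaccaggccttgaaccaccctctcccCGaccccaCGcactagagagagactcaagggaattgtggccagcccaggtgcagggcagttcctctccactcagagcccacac
Btk, promoter: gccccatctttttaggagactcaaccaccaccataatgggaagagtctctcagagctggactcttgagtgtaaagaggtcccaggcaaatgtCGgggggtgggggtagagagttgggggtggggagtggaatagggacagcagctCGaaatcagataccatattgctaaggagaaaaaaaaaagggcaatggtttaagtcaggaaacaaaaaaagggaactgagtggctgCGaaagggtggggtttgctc
Cr2, promoter: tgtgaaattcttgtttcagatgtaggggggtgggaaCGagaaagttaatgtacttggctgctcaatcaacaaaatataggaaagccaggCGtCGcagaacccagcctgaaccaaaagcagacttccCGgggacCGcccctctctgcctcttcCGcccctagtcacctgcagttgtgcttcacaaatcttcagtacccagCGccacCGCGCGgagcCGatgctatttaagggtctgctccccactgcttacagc
The Cd79a peak held 3 CpG in 173 bp, and an uninterrupted run of 16 G lay within 100 bp of its summit. The promoter stretches held 2 CpG in 134 bp for Cd79a, 3 in 250 bp for Btk and 11 in 253 bp for Cr2. Before cutting at the start, these promoter sequences held 8, 3 and 14 CpG. The stretches lie before the starts, whereas the Lyn and Plcg2 windows lie after them, so the printed regions are not alike. CpG counts in equal windows of 1000 bp are given below.

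The receptor chains had no peak in the MIZ-1WT list. Cd79a (ENSMUSG00000003379, chr7:24897381-24902197, + strand), which encodes Igα, had 2 peaks in the MIZ-1DPOZ list. Its promoter peak had a summit 826 bp before the start, a fold enrichment of 4.68, a −log10 q of 4.19 and 10 fragments over the summit. The other peak was the best scoring of all peaks at the 9 genes, with a fold enrichment of 7.01, a −log10 q of 10.8 and 19 fragments, and 83.2% of the MIZ-1DPOZ peaks had a lower −log10 q. This second summit lay 4239 bp after the start in untranslated exon 5, at 24901620 on chromosome 7, and the nearest start was that of Arhgef1 at 1292 bp. The sequence at this summit occurred 2 times in the genome. The modified Cd79a allele, the absence of the POZ domain and the deeper MIZ-1DPOZ library cannot be told apart as sources of these peaks. Over the whole MIZ-1DPOZ list 22.1% of peaks overlapped a MIZ-1WT peak, so a peak in that list alone was common. Cd79b (ENSMUSG00000040592, chr11:106311341-106314762, - strand), which encodes Igβ, had no peak in either list. The summit nearest to a Cd79b start was 112823 bp away for MIZ-1WT and 4886 bp away for MIZ-1DPOZ, where the medians over protein-coding genes were 12854 and 1948 bp.

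Cr2 (ENSMUSG00000026616, chr1:195136811-195176716, - strand) encodes the complement coreceptor that is most abundant on marginal zone B cells. It had a single peak, in the MIZ-1DPOZ list, in intron 1 at a summit 5119 bp from the nearest Cr2 start. Its fold enrichment was 5.54, with a −log10 q of 5.96 and 12 fragments, which is the median pileup of that list. In the MIZ-1WT list the nearest summit was 65006 bp from a Cr2 start.

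**Figure D1:**
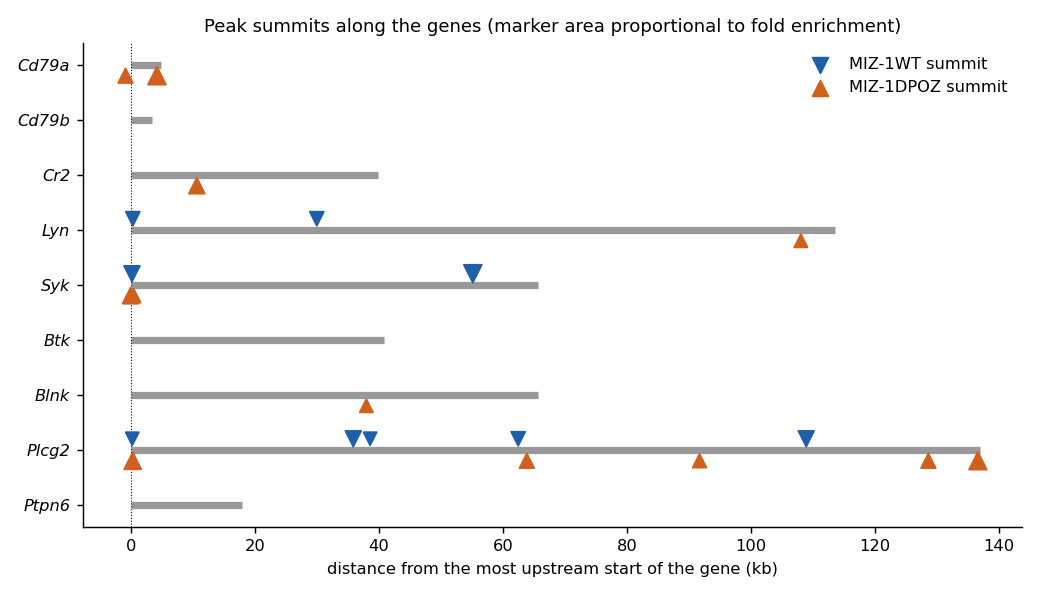
Peak summits along the 9 genes. The horizontal axis is the distance from the most upstream start in kb, grey bars are the gene spans, downward blue markers are MIZ-1WT summits and upward orange markers MIZ-1DPOZ summits, with marker area proportional to fold enrichment. Plcg2 holds 5 summits of each list, whereas Cd79b, Btk and Ptpn6 hold none.

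Among the kinases, Syk and Lyn had promoter peaks and Btk did not. LYN starts the cascade and also activates inhibitory receptors. The Lyn gene (ENSMUSG00000042228, chr4:3678115-3791613, + strand) had a promoter peak in MIZ-1WT only, at 346 bp after the most upstream start in intron 1, with a fold enrichment of 4.30, a −log10 q of 2.48 and 7 fragments. Its score was low, as 12.7% of the MIZ-1WT peaks had a lower −log10 q. This peak also overlaps Gm26857, a lincRNA on the opposite strand, so the DNA of the 2 genes is shared there. In the MIZ-1DPOZ list the summit nearest to a Lyn start was 16494 bp away. A second MIZ-1WT peak, 29999 bp into the gene in intron 1, had the same scores and lay wholly in repeat-masked sequence that occurred 17 times in the genome. The only MIZ-1DPOZ peak of Lyn was 108027 bp from the start in intron 12, with a fold enrichment of 3.83 and 8 fragments.

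SYK is the kinase that carries the signal from the receptor tails to the adaptors. The promoter of Syk (ENSMUSG00000021457, chr13:52583173-52648792, + strand) was covered in both lists. The MIZ-1WT summit lay 207 bp after the most upstream start in untranslated exon 1, with a fold enrichment of 5.38, a −log10 q of 4.14 and 9 fragments. The MIZ-1DPOZ list had a 474 bp wide peak with its summit 28 bp before the start, a fold enrichment of 5.54, a −log10 q of 5.96 and 12 fragments. These 2 peaks shared 180 bp, and their summits were 235 bp apart. A further MIZ-1DPOZ peak followed at 482 bp in intron 1, with a fold enrichment of 4.26 and 9 fragments, and it overlapped no MIZ-1WT peak. After scaling by depth, the MIZ-1DPOZ pileup of the overlapping pair was 0.994 times that of MIZ-1WT, with an exact 95% binomial interval from 0.385 to 2.67 that covers counting error only. The scaled pileups were therefore close, and the interval leaves room for differences of more than 2-fold in both directions. They were taken at different positions, since the MIZ-1DPOZ summit lay outside the MIZ-1WT peak. The ratio thus does not compare the signal at 1 site. The best scoring MIZ-1WT peak at any of the 9 genes was also in Syk, 55146 bp from the start in intron 10. It had a fold enrichment of 6.94, a −log10 q of 7.02 and 12 fragments, and 88.4% of the MIZ-1WT peaks had a lower −log10 q. No MIZ-1DPOZ peak overlapped it. Btk (ENSMUSG00000031264, chrX:134542336-134583140, - strand), the gene for the TEC family kinase that activates PLCG2, had no peak. Its nearest summit was 18271 bp from a start for MIZ-1WT and 41487 bp for MIZ-1DPOZ.

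**Figure D2:**
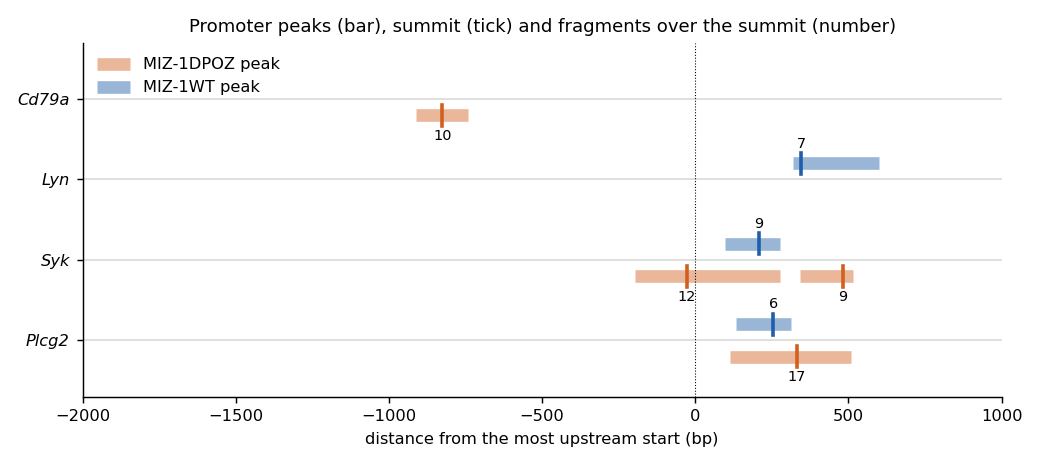
Promoter peaks of the 4 genes that had one. The horizontal axis is the distance from the most upstream start in bp, bars are peaks, ticks are summits and numbers are fragments over the summit. The peaks of Syk and Plcg2 overlap between lists, the Lyn peak is in the MIZ-1WT list only, and the Cd79a peak of the MIZ-1DPOZ list lies 826 bp upstream.

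BLNK is the scaffold on which BTK and PLCG2 meet. Blnk (ENSMUSG00000061132, chr19:40928927-40994535, - strand) had no MIZ-1WT peak, and its nearest MIZ-1WT summit was 99481 bp from a start. In the MIZ-1DPOZ list it had 1 peak in intron 6 with a fold enrichment of 3.83, a −log10 q of 2.61 and 8 fragments. That summit was wholly repeat-masked and its sequence occurred 138 times in the genome, the highest number among the 21 peaks.

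PLCG2 cleaves membrane phosphoinositides and so triggers calcium release. Plcg2 (ENSMUSG00000034330, chr8:117498291-117635142, + strand), at 136852 bp the longest of the 9 genes, had 5 peaks in each list. At its promoter, the MIZ-1WT summit lay 255 bp after the start, with a fold enrichment of 3.76, a −log10 q of 1.76 and 6 fragments, and 1.83% of the MIZ-1WT peaks had a lower −log10 q. The MIZ-1DPOZ summit lay 332 bp after the start, with a fold enrichment of 6.35, a −log10 q of 8.93 and 17 fragments, and 78.7% of the MIZ-1DPOZ peaks had a lower −log10 q. The peak was thus near the bottom of one list and in the upper part of the other. The peaks shared 183 bp and their summits were 77 bp apart. The depth-scaled MIZ-1DPOZ pileup was 2.11 times that of MIZ-1WT, and the interval from 0.795 to 6.55 included 1.

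Inside Plcg2 the other peaks did not coincide between lists. The MIZ-1WT summits lay 35878 and 38594 bp from the start in intron 2, 62456 bp in intron 5 and 108883 bp in coding exon 25, with 6 to 9 fragments. The MIZ-1DPOZ summits lay 63852 bp from the start in intron 5, 91691 bp in coding exon 17, 128574 bp in intron 31 and 136560 bp in untranslated exon 33. The last of these had a fold enrichment of 6.81, a −log10 q of 8.91 and 15 fragments, and the other 3 had 9 or 10 fragments. The MIZ-1WT summit in intron 5 had a sequence that occurred 6 times in the genome.

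Ptpn6 (ENSMUSG00000004266, chr6:124720707-124738714, - strand) encodes SHP-1, the phosphatase that dampens BCR signals from inhibitory receptors. It had no peak in either list, and its nearest summit was 7219 bp from a start for MIZ-1WT and 14559 bp for MIZ-1DPOZ. The start of Gm20531 lies in the same promoter window, which held no peak.

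Over all 9 genes there were 9 MIZ-1WT and 12 MIZ-1DPOZ peaks, with median scores below those of the whole lists. Single peaks were spread widely within their list. The share of the list with a lower −log10 q ran from 1.83% to 88.4% for MIZ-1WT and from 5.09% to 83.2% for MIZ-1DPOZ. The MIZ-1WT peaks had 6 to 12 fragments with a median of 7, and the median of the whole list was 9. The MIZ-1DPOZ peaks had 8 to 19 fragments with a median of 10, against 12 in the whole list. The median fold enrichment was 4.30 at the members and 4.84 over all MIZ-1WT peaks. For MIZ-1DPOZ these values were 4.68 and 5.11. A −log10 q of at least 5 was reached by 1 of 9 MIZ-1WT and 5 of 12 MIZ-1DPOZ peaks, and by 28.4% and 58.5% of all peaks of these lists. The spans of the genes amounted to 0.489 Mb, in which the MIZ-1WT list had 18.4 peaks per Mb and the MIZ-1DPOZ list 22.5. Over all protein-coding genes the densities were 16.1 and 36.0 peaks per Mb. The density at the 9 genes was thus close to that of protein-coding genes for MIZ-1WT and below it for MIZ-1DPOZ, where it rests on 11 peaks.

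**Figure D3:**
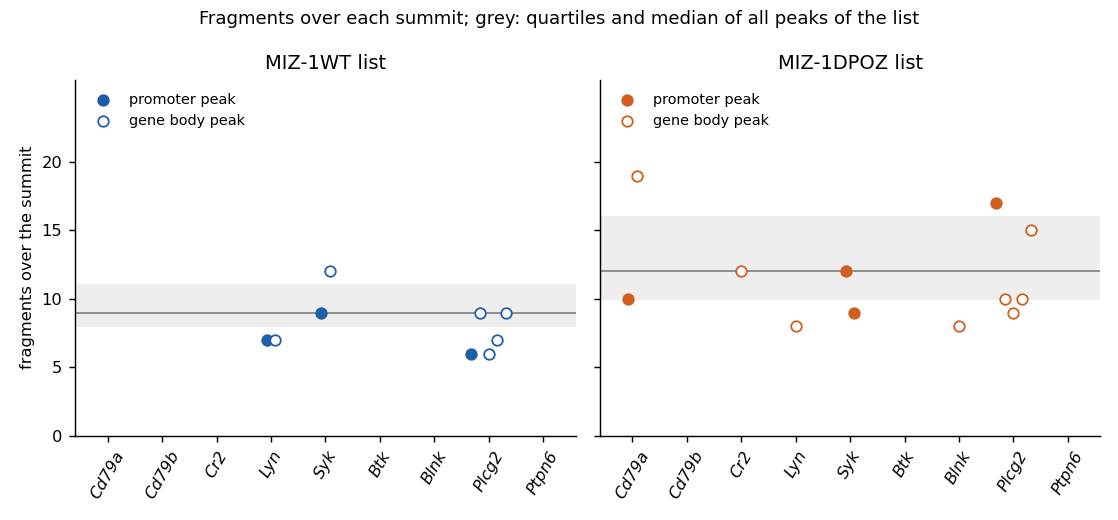
Fragments over each summit, by gene, for the MIZ-1WT list (left) and the MIZ-1DPOZ list (right). Filled points are promoter peaks, open points gene body peaks, the grey band spans the quartiles of all peaks of the list and the line is their median. The MIZ-1WT points run from 6 to 12 and the MIZ-1DPOZ points from 8 to 19, and the 2 axes are not corrected for depth.

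Few of these peaks were shared between genotypes. At least 1 bp of overlap was found for 2 of 9 MIZ-1WT peaks, or 22.2% with a 95% Wilson interval from 6.32% to 54.7%, where 53.7% of all MIZ-1WT peaks overlapped a MIZ-1DPOZ peak. In the other direction 2 of 12 MIZ-1DPOZ peaks overlapped, or 16.7% with an interval from 4.70% to 44.8%, where the share over the whole list was 22.1%. Both overlapping pairs were at promoters, those of Syk and Plcg2, and no gene body peak overlapped. The intervals cover counting error only, and each includes the value of its whole list.

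The sequence around the promoter starts separated the genes into CpG-rich and CpG-poor, a grouping made after the peaks were seen. In the 1000 bp around the most upstream start, Syk had 78 CpG, Lyn 68 and Plcg2 66, all above the median of 43 over protein-coding genes. Cd79a had 22, Cr2 and Ptpn6 21 each, Btk 16, Blnk 15 and Cd79b 12. The 3 genes above the median were the 3 with a MIZ-1WT promoter peak. In the MIZ-1DPOZ list the split was less clean, since CpG-rich Lyn had no promoter peak and CpG-poor Cd79a had one. Over all protein-coding genes the share with a promoter peak was higher in the classes with more CpG in both lists. Of 3702 protein-coding genes with 60 to 79 CpG, 47.1% had a MIZ-1WT and 70.9% a MIZ-1DPOZ promoter peak. Of 1622 genes with 20 to 29 CpG these shares were 14.3% and 36.6%, and of 3038 genes with 10 to 19 CpG they were 9.08% and 23.2%. Whether CpG content or a feature that accompanies it moves with the peaks was not tested.

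**Figure D4:**
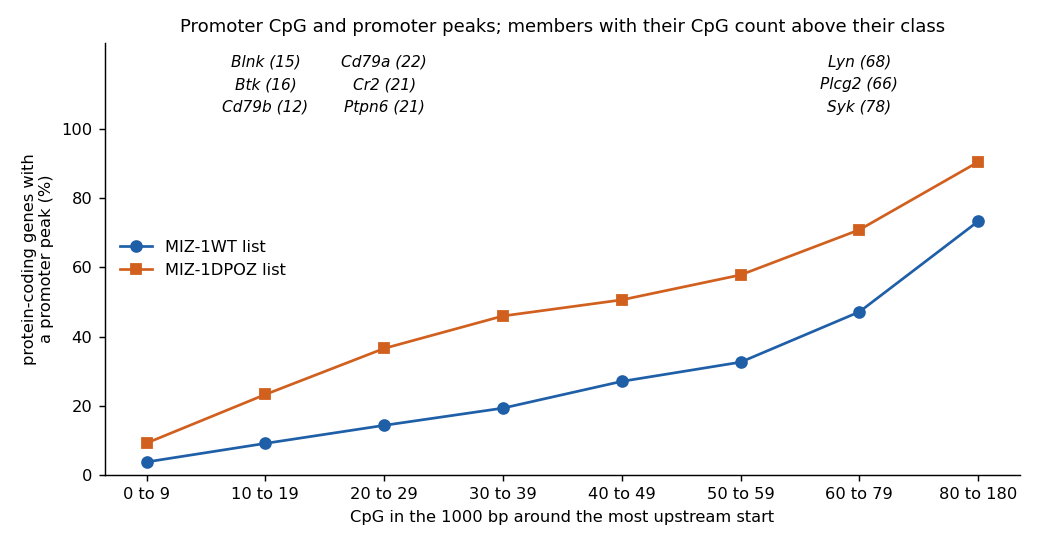
Share of protein-coding genes with a promoter peak (vertical axis, percent) by the number of CpG in the 1000 bp around the most upstream start (horizontal axis), for the MIZ-1WT list (blue circles) and the MIZ-1DPOZ list (orange squares). Each of the 9 genes is written above its class with its own CpG count, and Lyn, Plcg2 and Syk stand apart at 66 to 78.

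Within 201 bp around the summits, the 3 MIZ-1WT promoter peaks had 69.2% to 75.1% GC and 18 to 24 CpG, where the medians of the list were 60.7% and 8. The 4 MIZ-1DPOZ promoter peaks had 52.7% to 72.6% GC and 4 to 17 CpG, and the medians of that list were 60.2% and 6. None of these 7 promoter windows was more than 50% repeat-masked. Among all peaks at the 9 genes 3 of 9 MIZ-1WT and 2 of 12 MIZ-1DPOZ windows were, compared with 60.3% and 56.0% of the lists. The list values are over all peaks, at promoters or not, and values over promoter peaks alone were not computed. The differences at the promoter peaks are therefore not shown to be particular to these genes. Short motifs were searched on both strands without mismatch. The E-box CACGTG, bound by MYC family proteins, was in 1 of the 21 windows, that of the MIZ-1DPOZ peak in Plcg2 intron 5, and in 3.25% and 3.45% of all windows of the MIZ-1WT and MIZ-1DPOZ lists. The letters ATCGAT were in none of the 21 and in 0.497% and 0.355% of the lists. The GC box GGGCGG was in 3 windows, the MIZ-1WT summit in Syk intron 10 and the MIZ-1DPOZ summits at the Syk promoter and in Plcg2 intron 31, against 26.8% and 22.4% of the lists. The PU.1-like core GAGGAA was in 2 of 9 and 5 of 12 windows, against 16.9% and 19.6%, among them both Plcg2 promoter summits and the Syk summit 28 bp before the start. The EBF1-like CCCNNGGG was in 2 of 9 and 2 of 12 windows, again including both Plcg2 promoter summits, against 14.6% and 15.4%. The Plcg2 promoter summits were 77 bp apart, so their windows overlap. For both motifs the same stretch of letters is counted in each list there. The octamer, ATGCAAAT, was found at the repeat-masked Lyn peak of the MIZ-1WT list and nowhere else among the 21, against 0.979% and 0.641% of the lists. These matches describe letters in the window and do not show what bound there.

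A list of 29 further genes of the pathway, chosen by function, was set beside the 9. Of these, 12 had a MIZ-1WT and 16 a MIZ-1DPOZ promoter peak, 10 of them both, and 11 had none. Over all protein-coding genes the shares were 30.9%, 48.7%, 26.6% and 47.1%, and the groups of 5 to 8 genes that follow are to be read against these. Among 8 receptors and coreceptors only the gene for the tetraspanin CD81, a partner of CR2, had promoter peaks, 2 in MIZ-1WT and 3 in MIZ-1DPOZ. The best scoring ones had a fold enrichment of 6.68 in MIZ-1WT and 6.76 in MIZ-1DPOZ. These did not overlap each other, but a MIZ-1WT promoter peak of Cd81 did overlap a peak of the MIZ-1DPOZ list. The other 7, among them Cd22, Cd72, Fcgr2b, Siglecg, Cd5 and Ptprc, had none, as had 47.1% of protein-coding genes. Of the receptor genes among the 9, Cd79b and Cr2 had none and Cd79a had one in the MIZ-1DPOZ list. Among 5 kinases, 3 had a peak in each list. Tec, a relative of Btk, had a MIZ-1WT peak only, with a fold enrichment of 6.45, and Prkcb, the protein kinase C that links PLCG2 to NF-κB, had a MIZ-1DPOZ peak only, with 4.30. Csk, which holds Src kinases in check, was in both lists with 5.73 and 4.06.

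Of 8 adaptors, 4 had a MIZ-1WT and 5 a MIZ-1DPOZ promoter peak, beside 30.9% and 48.7% of protein-coding genes. Grb2, which links receptors to RAS, was in both lists with a fold enrichment of 7.53 in MIZ-1WT and 5.08 in MIZ-1DPOZ. Nck1 was in the MIZ-1WT list only with 4.91, and Shc1 and Sh3bp2 were in the MIZ-1DPOZ list only with 4.05 and 4.68. Of 8 enzymes, exchange factors and scaffolds, 4 had a MIZ-1WT and 7 a MIZ-1DPOZ promoter peak, beside the same 30.9% and 48.7%. The ubiquitin ligase gene Cbl had 7.89 in MIZ-1WT and 6.81 in MIZ-1DPOZ, and the PI3K catalytic subunit gene Pik3cd had 6.99 and 4.68. Vav1 and Inpp5d (the phosphatase SHIP-1) were in the MIZ-1DPOZ list only, with 4.93 and 5.11. Fold enrichments are scaled within each list, so a lower value in one list is not a lower occupancy.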

How the data were processed

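MIZ-1 ChIP-seq of B220+ splenocytes was analysed from 1 deposited peak list per genotype, and the reads and input libraries were not used here. The authors trimmed paired-end reads, aligned them to mm10 and called peaks against input separately per genotype. Their methods name bwa and MACS2, whereas the submitters' processing notes name Bowtie2 2.2.6 and MACS2 2.1.0. The cutoff is not given in the sources used here. The deposited columns hold the fold enrichment at the summit (a ratio), −log10 p-values and q-values of a Poisson model, and the summit offset, listed as a score by the authors' caller. The smallest −log10 q was 1.03 (MIZ-1WT) and 1.01 (MIZ-1DPOZ).

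Peaks were set against GENCODE M21 basic transcripts on GRCm38, the assembly of mm10, and 0 peaks passed a chromosome end. Whole-number pileups were solved from fold and p under the MACS2 formulas for 100% of peaks, and the procedure was tested on simulated data. Depth was estimated from the most frequent background divided by the smallest peak width. Copies are the median genomic count of 5 sequences of 50 bases at the summit. Intervals are Wilson (shares) or exact binomial (pileup ratios) at 95%. Python 3.11.15, pandas 2.3.3 and scipy 1.17.1 were used. The 9 genes and the other lists were chosen with earlier results of these data known. All 9 were to be named. Of the 29 pathway genes, those with a promoter peak in 1 list only were named, and the 5 of both lists with the largest smaller −log10 q. Receptor genes without a peak were added after their values were seen. Some pathway genes are counted but not reported here by name. Alternatives covered score cutoffs, windows, overlap rules, equal numbers of peaks and scaling.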

Additional observations from a re-analysis of the deposited data

How the results depend on the processing

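The counts and shares were recomputed under 54 combinations of result and alternative, of which 40 stayed within 1.5 times the reported count or within the interval of the reported share or ratio, and 14 did not. Promoter counts within 500 or 200 bp, by summit, by nearest start, with all GENCODE transcripts and at single-copy summits gave 2 or 3 genes per list, and Syk and Plcg2 kept a promoter peak in both lists under each of these. Lyn had none within 200 bp in the MIZ-1WT list, and Cd79a none within 500 or 200 bp in the MIZ-1DPOZ list. Stricter scores moved more. At a −log10 q of at least 2, 1 gene had a promoter peak in both lists. With −log10 q raised to 5 or more, 0 genes had one for MIZ-1WT or for both, 1 MIZ-1WT and 5 MIZ-1DPOZ peaks were left, and both overlap shares were 0%. At a fold of at least 5, 1 gene (Syk) had a MIZ-1WT promoter peak and 1 had both, and 4 and 5 peaks were left. With equal numbers of peaks, 5 MIZ-1DPOZ peaks were left at the 9 genes and Cd79a lost its promoter peak. With a reciprocal overlap of 50%, both shares fell to 0%. When summits had to lie within 100 bp, the shares were 1 of 9 and 1 of 12, and the Syk pair no longer counted. The pileup ratios moved to 0.851 and 1.33 (Syk) and 1.81 and 2.83 (Plcg2) with background scaling and no scaling. The unscaled interval of Plcg2, 1.07 to 8.78, was above 1.

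No paired analysis was possible because there is 1 ChIP library per genotype, and leaving out a library was not possible for the same reason. The depth limits what can be read from genes without a peak, since the weakest peak of the MIZ-1WT list had 5 fragments and that of the MIZ-1DPOZ list 6.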

Other observations

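Homopolymer runs appeared at a few of the summits, a feature looked for after the Cd79a sequence had been read. A run of at least 10 G or C lay within 100 bp of the summit at 1 of 9 MIZ-1WT peaks, in Plcg2 intron 2, and at 2 of 12 MIZ-1DPOZ peaks, the Cd79a promoter peak and Plcg2 intron 31. Such runs were in 2.19% of all MIZ-1WT and 3.54% of all MIZ-1DPOZ windows, where the median longest run was 4 bases. At Cd79a and at Plcg2 intron 2 the run was 16 bases long. The part of these runs in the peaks was not tested.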
